A study of Mus musculus with 13 samples.

Results

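Sox8, Sox9 and Sox10 make up the SoxE group, and these 3 genes were taken out of 35312 annotated protein-coding and long noncoding genes, 21938 of them protein-coding. They were chosen by name. Listed H3K4me3 and H3K27me3 peaks were assigned to them within 2 kb of a transcription start site (TSS) or in the gene, and listed OLIG2 peaks in the gene or within 100 kb of it, stage by stage. The study profiled untreated mouse cells at 3 stages of the oligodendrocyte lineage by ChIP-seq, which reads the DNA bound by a modified histone or a factor. Neural stem cells (NSCs) were cultured from the cortex at E14.5. Their strain is C57BL/6 by 1 label and CD-1 by the growth protocol. Oligodendrocyte precursor cells (OPCs) and newly formed oligodendrocytes (NFOs) were immunopanned on antibodies to PDGFRα and then GalC out of brains of C57BL/6 pups on postnatal day 7. Each stage had 1 library for each histone mark, OPCs and NFOs had 1 OLIG2 library each, and the mark of a library was taken from its title, because its antibody label names the other mark. There are no replicates, so no difference between stages has a replicate check and no test was run.

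SoxE proteins are HMG-box transcription factors that share a dimerization region and act one after another in glia. SOX9 is known for the switch of neural stem cells from neurons to glia, SOX10 for driving differentiation and myelin genes in committed oligodendrocytes, and SOX8 for a weaker role that overlaps with both. H3K4me3 marks promoters that are active or ready for use, H3K27me3 is laid down by Polycomb repressive complex 2, and a stretch with both is called bivalent. OLIG2 is the basic helix-loop-helix factor that specifies the lineage and binds E-boxes.

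All 3 genes carried H3K4me3 within 2 kb of a TSS at all 3 stages. Sox8 had H3K4me3 without H3K27me3 throughout. Sox9 had H3K4me3 in NSCs and NFOs and a bivalent domain in OPCs. Sox10 had a bivalent domain in NSCs and H3K4me3 without H3K27me3 in OPCs and NFOs. H3K4me3 near a TSS was called at 64.3% (NSCs), 60.8% (OPCs) and 43.6% (NFOs) of protein-coding genes, and at all 3 stages at 41.8%. H3K27me3 was called at 15.1%, 16.4% and 9.56%, and a bivalent domain at 8.58%, 5.45% and 2.9%. Both bivalent calls rest on peaks of at most 412 bp of H3K27me3.

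**Figure D1:**
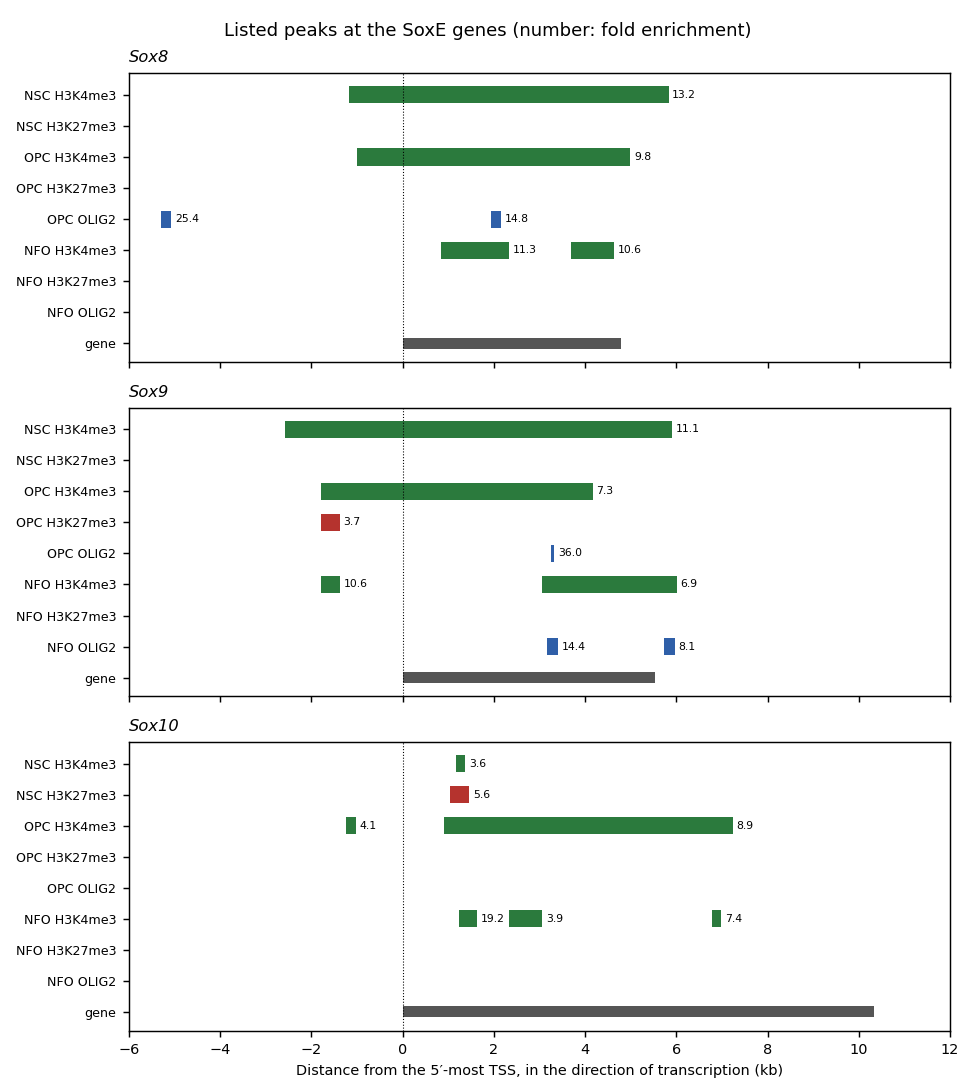
Listed peaks around Sox8, Sox9 and Sox10 by distance from the 5′-most TSS in kb, 1 row for each list and the gene body in grey, with H3K4me3 in green, H3K27me3 in red and OLIG2 in blue, and the fold enrichment of each peak beside it. H3K4me3 at Sox10 goes from 201 bp in NSCs to 6336 bp in OPCs, while in NFOs no H3K4me3 peak of the 3 genes lies over a TSS.

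Sox10 lies on chromosome 15 from 79154908 to 79165240 on the minus strand (mm10) and has 4 annotated TSSs. Its bivalent domain in NSCs lay in the intron before the exon with the start of the coding sequence, 1178 to 1378 bp downstream of the 5′-most TSS. The H3K4me3 peak there was 201 bp wide with a fold enrichment of 3.60 over input, and it sat wholly inside an H3K27me3 peak of 411 bp with a fold enrichment of 5.61. The H3K4me3 value was low for a marked gene, above 3.20% of the protein-coding genes with such a peak, whereas the H3K27me3 value was above 91.0% of those with H3K27me3. The domain is shown on the plus strand from the RefSeq copy of mm10 because the bivalent call of Sox10 rests on it, with CpG dinucleotides in capitals.
Sox10 NSC bivalent domain, chr15:79163862-79164062: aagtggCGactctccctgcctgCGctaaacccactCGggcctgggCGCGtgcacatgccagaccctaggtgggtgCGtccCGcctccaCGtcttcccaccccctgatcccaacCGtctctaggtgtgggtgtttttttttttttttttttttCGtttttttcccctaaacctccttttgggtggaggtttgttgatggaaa

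The window holds 10 CpGs and an unbroken run of 21 T. Runs of at least 15 of 1 base were common among narrow NSC peaks, in 51.1% of H3K4me3 and 67.0% of H3K27me3 peaks of up to 1000 bp, against 6.33% to 13.0% in the 4 OPC and NFO histone lists. Without narrow peaks that hold such a run Sox10 had neither mark in NSCs, and the bivalent share of protein-coding genes in NSCs was 4.74%. The part of the run in the Sox10 call was not tested.

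In OPCs Sox10 had an H3K4me3 peak of 6336 bp with a fold enrichment of 8.88, reaching from 897 to 7232 bp downstream of the 5′-most TSS. It was wider than the widest peak of 99.7% of protein-coding genes with H3K4me3 near a TSS. A second OPC peak of 215 bp with a fold enrichment of 4.08 lay upstream, in an intron of the noncoding gene Gm10863. In NFOs the strongest Sox10 peak was 379 bp wide with a fold enrichment of 19.2, above 96.1% of protein-coding genes with such a peak. It overlapped the end of the Sox10 intron that held the NSC bivalent domain, and the exon after it. The other NFO peaks had a fold enrichment of 3.91 over 732 bp and of 7.43 over 198 bp, both in introns. Sox10 thus ranked low in NSCs, high in OPCs and higher still in NFOs by fold enrichment, but by width it was among the widest in OPCs alone. Of the 1882 protein-coding genes with a bivalent domain in NSCs, 556 (29.5%) had H3K4me3 without H3K27me3 in both OPCs and NFOs, as Sox10 had. The nearest listed H3K27me3 peak was 54718 bp from Sox10 in OPCs, and in NFOs the distance was 337863 bp.

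Sox9 lies on chromosome 11 from 112782224 to 112787760 on the plus strand and has 1 annotated TSS. Its NSC H3K4me3 peak was 8502 bp wide, ran from 2588 bp upstream to 5913 bp downstream of the TSS and so covered the whole gene, with a fold enrichment of 11.1. The OPC peak was 5951 bp wide with a fold enrichment of 7.27. In NFOs the mark was listed in separate pieces on either side of the TSS. An upstream piece of 414 bp had a fold enrichment of 10.6, and a piece of 2964 bp over the 3′ part of the gene had 6.85. Both NSC and OPC peaks were wider than the widest peak of most protein-coding genes with H3K4me3 near a TSS, namely 99.7% and 99.6%, and the piece near the TSS in NFOs was wider than in 41.3%.

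The H3K27me3 peak that made Sox9 bivalent in OPCs was 412 bp wide, 1374 to 1785 bp upstream of the TSS in an intron of the divergent noncoding gene BC006965. Its fold enrichment of 3.73 was above 28.9% of protein-coding genes with H3K27me3 near a TSS in OPCs. No H3K27me3 was listed near the Sox9 TSS in NSCs or NFOs. A bivalent domain in OPCs was called at 494 (4.29%) of the 11525 protein-coding genes that had H3K4me3 and no H3K27me3 near a TSS in NSCs. The OPC H3K27me3 peak and the upstream NFO H3K4me3 peak end within 1 bp of each other on both sides, although they come from different libraries and marks. Such pairs, with both ends within 10 bp, numbered 268, or 0.911% of OPC H3K27me3 peaks and 1.23% of NFO H3K4me3 peaks, while pairs that involve an NSC list numbered 0 to 9. The OPC H3K4me3 peak of Sox9 also starts at the same base as the upstream NFO peak, though it ends elsewhere. The part of these shared ends in the Sox9 call was not tested. The call was absent within 1 kb of the TSS and among peaks with a fold enrichment above 5, and at 1 kb Sox9 also had no H3K4me3 in NFOs.

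Sox8 lies on chromosome 17 from 25565892 to 25570686 on the minus strand with 2 annotated TSSs. H3K4me3 spanned the whole gene in NSCs, over 7014 bp with a fold enrichment of 13.2. The OPC peak was 5982 bp wide with 9.84, and also took in the whole gene. In NFOs the gene held a peak of 1497 bp with 11.3 and, nearer its 3′ end, one of 946 bp with 10.6. The NSC value was above 93.8% of protein-coding genes with H3K4me3 near a TSS, the OPC value above 89.4% and the NFO value above 83.7%, so Sox8 ranked high at each stage. No H3K27me3 peak was listed within 10 kb of Sox8 at any stage. The nearest one in NSCs lay 86789 bp away, that in OPCs 12999 bp and that in NFOs 171190 bp.

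**Figure D2:**
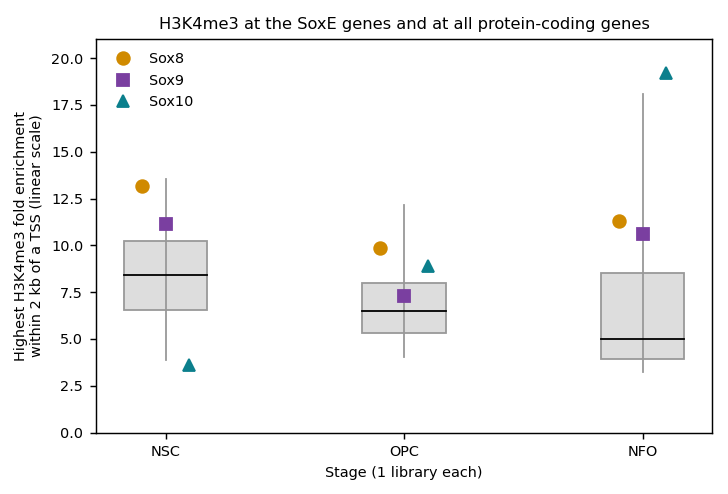
Highest H3K4me3 fold enrichment within 2 kb of a TSS by stage, 1 library each, for Sox8 (circles), Sox9 (squares) and Sox10 (triangles), over all protein-coding genes with such a peak (box, 25th to 75th percentile; black line, median; grey line, 5th to 95th percentile). Sox10 lies at 3.60 in NSCs, below the median of 8.44, and at 19.2 in NFOs, above the median of 5.02.

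The position of the peaks relative to the TSS set Sox10 apart from the other SoxE genes in NSCs and OPCs. In both stages the H3K4me3 peaks of Sox8 and Sox9 lay over every annotated TSS, whereas those of Sox10 stopped 412 bp short of the nearest TSS in NSCs and 131 bp short in OPCs. A peak over a TSS was seen at 92.9% of protein-coding genes with H3K4me3 near a TSS in NSCs and at 87.9% in OPCs. In NFOs the share was 42.3%, and no peak of Sox8, Sox9 or Sox10 lay over a TSS, with gaps of 372, 1373 and 479 bp. The median NFO H3K4me3 peak was 255.5 bp wide, against 987 bp in OPCs and 553 bp in NSCs.

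Summed over the gene and 10 kb on either side, H3K4me3 covered 201, 6551 and 1309 bp at Sox10 in NSCs, OPCs and NFOs. The values for Sox8 were 9778, 6310 and 2443 bp, and for Sox9 8502, 5951 and 3378 bp. In bp, Sox8 and Sox9 were thus covered most in NSCs and Sox10 in OPCs. In the same order of stages, the covered length exceeded that of 98.9%, 99.2% and 97.2% of protein-coding genes for Sox8. For Sox9 the shares were 98.0%, 98.9% and 99.1%, and for Sox10 28.1%, 99.3% and 86.7%. By this rank Sox8 was highest in OPCs, Sox9 in NFOs and Sox10 in OPCs. The NSC reads were single-end and the others paired-end, so widths are not on 1 scale between NSCs and the later stages.

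All 3 genes have a noncoding neighbour that starts on the other strand close to the promoter. The gap between TSSs was 121 bp for Sox8 and 2810468N07Rik, 248 bp for Sox9 and BC006965, and 801 bp for Sox10 and Gm10863. A long noncoding RNA TSS on the other strand within 1 kb was annotated at 9.78% of protein-coding genes. This feature was chosen after the loci had been inspected. H3K4me3 between such start sites cannot be assigned to either gene.

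OLIG2 peaks were listed near each SoxE gene, 6 in OPCs and 9 in NFOs. In OPCs each gene had 2 peaks within 100 kb, and in NFOs Sox8 had 1, Sox9 had 4 and Sox10 had 4. The study kept OLIG2 peaks with a fold enrichment above 5, and with that filter Sox10 had 0 peaks in OPCs, while the counts of the other genes and of NFOs stayed the same. At least 1 peak was found within 100 kb of 59% of protein-coding genes in OPCs and 80.5% in NFOs. At least 2 were found at 28.9% in OPCs, and at least 4 at 23.1% in NFOs. Inside the gene, Sox8 and Sox9 had an OPC peak and Sox9 an NFO peak, against 13.7% and 23.9% of protein-coding genes with a peak in the gene in OPCs and NFOs. Sox10 had none in the gene at either stage.

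**Figure D3:**
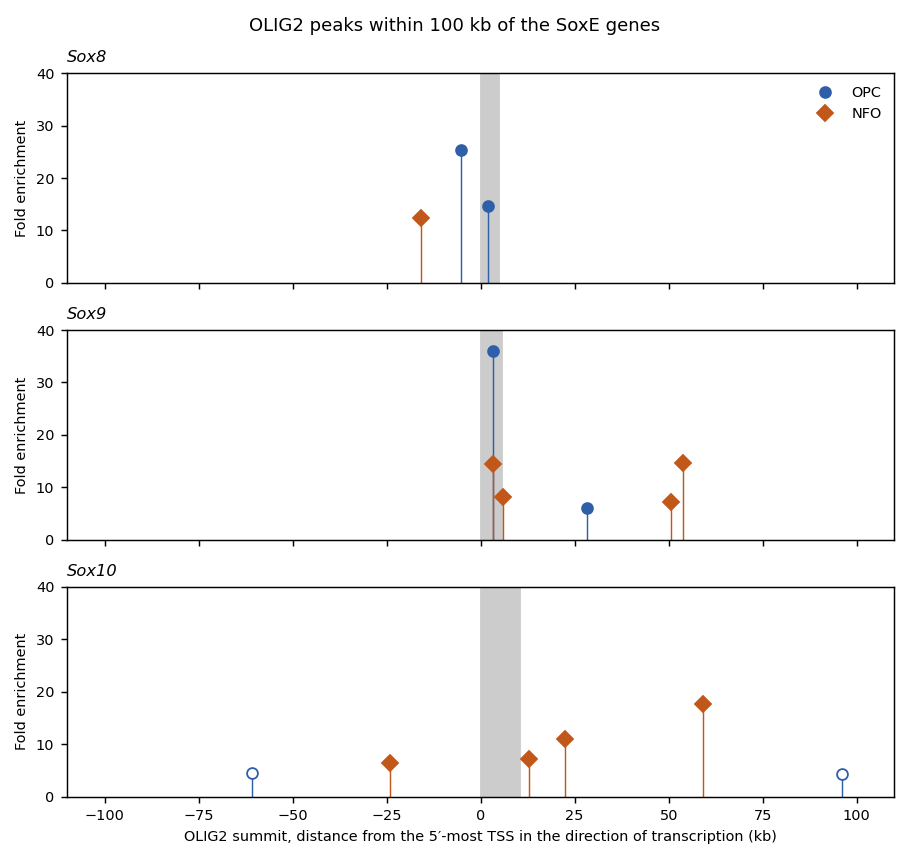
Fold enrichment (linear scale) of each OLIG2 peak in OPCs (circles) and NFOs (diamonds) against the distance of its summit from the 5′-most TSS in kb, with the gene body in grey and open symbols for peaks with a fold enrichment under 5. The highest peak is the one in Sox9 in OPCs at 36.0, and both OPC peaks around Sox10 are under 5.

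The sequences below are from the plus strand of mm10 in the RefSeq copy, and were chosen as the peaks in or nearest to each gene and the strongest distal ones, left out where they fall in a UTR. E-boxes (CANNTG) are in capitals, except in the Sox9 gene, where capitals mark the part shared by the OPC and NFO peaks.
Sox8 in gene, OPC, chr17:25568526-25568709: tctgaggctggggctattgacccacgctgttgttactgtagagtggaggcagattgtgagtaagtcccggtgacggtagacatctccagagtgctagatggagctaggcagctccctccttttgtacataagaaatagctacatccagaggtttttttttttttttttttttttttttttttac
Sox8 upstream, OPC, chr17:25575753-25575982: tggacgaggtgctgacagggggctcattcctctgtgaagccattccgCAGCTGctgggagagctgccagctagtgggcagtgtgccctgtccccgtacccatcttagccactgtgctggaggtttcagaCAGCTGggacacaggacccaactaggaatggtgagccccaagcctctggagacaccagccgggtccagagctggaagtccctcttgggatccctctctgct
Sox9 in gene, NFO, chr11:112785395-112785507: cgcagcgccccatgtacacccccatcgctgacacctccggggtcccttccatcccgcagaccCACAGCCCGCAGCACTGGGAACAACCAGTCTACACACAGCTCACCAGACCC
Sox9 downstream, NFO, chr11:112835805-112836040: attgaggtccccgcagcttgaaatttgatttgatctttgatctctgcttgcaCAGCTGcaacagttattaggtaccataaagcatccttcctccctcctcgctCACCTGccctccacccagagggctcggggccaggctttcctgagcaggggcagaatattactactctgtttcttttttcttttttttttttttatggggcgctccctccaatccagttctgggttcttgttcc
Sox10 near Micall1, NFO, chr15:79106131-79106366: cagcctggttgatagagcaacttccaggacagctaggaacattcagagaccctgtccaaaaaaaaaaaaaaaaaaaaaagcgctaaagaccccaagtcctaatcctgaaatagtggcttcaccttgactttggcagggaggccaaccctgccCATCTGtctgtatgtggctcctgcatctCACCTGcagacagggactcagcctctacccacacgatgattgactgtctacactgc
Sox10 downstream, NFO, chr15:79152391-79152626: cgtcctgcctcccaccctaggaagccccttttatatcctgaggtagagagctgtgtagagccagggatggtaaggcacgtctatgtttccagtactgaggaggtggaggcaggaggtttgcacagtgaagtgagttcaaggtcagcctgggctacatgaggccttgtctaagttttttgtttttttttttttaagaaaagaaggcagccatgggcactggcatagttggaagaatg

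The OLIG2 peak in Sox9 was the only one near the SoxE genes that was listed in both OPCs and NFOs. It had a fold enrichment of 36.0 in OPCs, rank 62 of 7384 peaks, and of 14.4 in NFOs, rank 1670 of 16911. It crosses the end of the coding sequence in the last exon, 3291 bp downstream of the TSS, where H3K4me3 was listed at all 3 stages. The summits of the OPC and NFO peaks lay 2 bp apart. The NFO peak held a run of 18 of 1 base and the OPC peak none over 3, so without peaks holding such runs the site was listed in OPCs alone. The OPC peak was 59 bp wide, while the commonest width was 230 bp. Of all listed peaks, 14.3% in OPCs and 6.26% in NFOs overlapped a peak of the other stage.

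The other Sox9 peaks all lay downstream of the gene. In OPCs a peak with a fold enrichment of 6.08 lay 22746 bp past the gene at a place with H3K4me3 at all 3 stages, nearest to the TSS of the noncoding gene Gm11681. In NFOs a peak with 8.13 lay 311 bp past the gene, and peaks with 7.14 and 14.7 lay 45016 and 48163 bp past it. The last pair lay over NSC H3K27me3 peaks and nearest to the TSS of the noncoding gene 4933434M16Rik, with Sox9 the nearest protein-coding gene. The highest NFO peak around Sox10 lay over peaks of both NSC marks, and the upstream OPC peak of Sox8 over NSC H3K4me3. The share of all listed OLIG2 peaks that lay over NSC marks was not computed.

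At Sox8 no OPC peak overlapped the NFO peak. That is usual in these lists, where 14.3% of OPC and 6.26% of NFO peaks overlapped a peak of the other stage. In OPCs a peak with a fold enrichment of 14.8 lay in the gene, under H3K4me3, and a peak with 25.4, rank 176 of 7384, lay 5182 bp upstream of the TSS. The upstream peak is nearer to the TSS of Lmf1, a lipase maturation factor, at 3217 bp. The single NFO peak, with 12.4, lay 15929 bp upstream inside Lmf1.

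Around Sox10 the OPC peaks had fold enrichments of 4.30 and 4.41, above 6.16% and 6.77% of the list, 85671 bp downstream and 60689 bp upstream of the gene. They were nearest to the TSSs of Gm49471 and of Pick1, and the nearest protein-coding gene of the former was the translation factor gene Eif3l. The 4 NFO peaks were stronger, but 3 of them, including the highest, held a run of 18 to 23 of 1 base, and without such peaks Sox10 had 1. The highest, with 17.7 (rank 694 of 16911), lay 48659 bp downstream, 2649 bp before the TSS of Micall1, an endosome traffic gene. Peaks with 10.9 and 7.20 lay 11972 and 2399 bp past the 3′ end of Sox10, both nearest to TSSs of Polr2f, which encodes an RNA polymerase subunit. A peak with 6.40 lay 24001 bp upstream in an intron of Gm10863 and was the 1 peak of the 6 with Sox10 as its nearest protein-coding TSS.

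H3K4me3 of the same stage overlapped 3 of the 6 OPC and 2 of the 9 NFO peaks, against 12.6% and 8.23% of all listed peaks. H3K27me3 of the same stage overlapped 1 OPC peak, downstream of Sox10, and no NFO peak, against 10.5% and 2.44%. All 5 peaks under H3K4me3 belonged to Sox8 or Sox9, and none to Sox10.

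An E-box was present in 3 of the 6 OPC and 6 of the 9 NFO peaks, and in 70.5% and 69.3% of all listed peaks of the commonest width, 230 and 236 bp. The 6 OPC peaks include the Sox9 peak of 59 bp, which held none and is too narrow to compare with that share. The E-box closest to a summit was CAGGTG, at 0 bp in the OPC peak 22746 bp past Sox9. The next closest were CACCTG at 12 bp in the NFO peak 48163 bp past Sox9, and CAGCTG at 17 bp in the Sox8 upstream peak. The Sox8 upstream peak held CAGCTG at 2 places. A SOX motif (ACAAAG or ACAATG on either strand) was present in 1 OPC and 1 NFO peak, both at Sox10. Of all listed peaks of the commonest width, 28.8% and 30.0% held one. Sequence masked as repeat in the genome copy made up 97.8% and 97.5% of these Sox10 peaks. It made up 93.2% of the NFO peak 24001 bp upstream of Sox10 and 36.0% to 45.3% of the other peaks around Sox10. The medians of all listed OLIG2 peaks were 28.7% in OPCs and 34.3% in NFOs. These letters can occur without binding. The peak in Sox8 held a run of 31 T, and 2 of the 6 OPC and 5 of the 9 NFO peaks held a run of at least 15 of 1 base, against 52.8% and 49.2% of all listed OLIG2 peaks. The part of these runs in the peaks was not tested.

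No site on a SoxE transcript was listed in RNA immunoprecipitation with OLIG2 antibody or IgG, among 101310 and 83195 sites on 1961 and 1971 transcripts. These transcripts are few beside the 35312 annotated genes, so most genes have no listed site and the absence is not particular to SoxE. The lowest number of tags at a listed site was 4, so sites with fewer were not seen. The labels place these libraries in newly formed oligodendrocytes and the study's methods in NSCs.

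**Figure D4:**
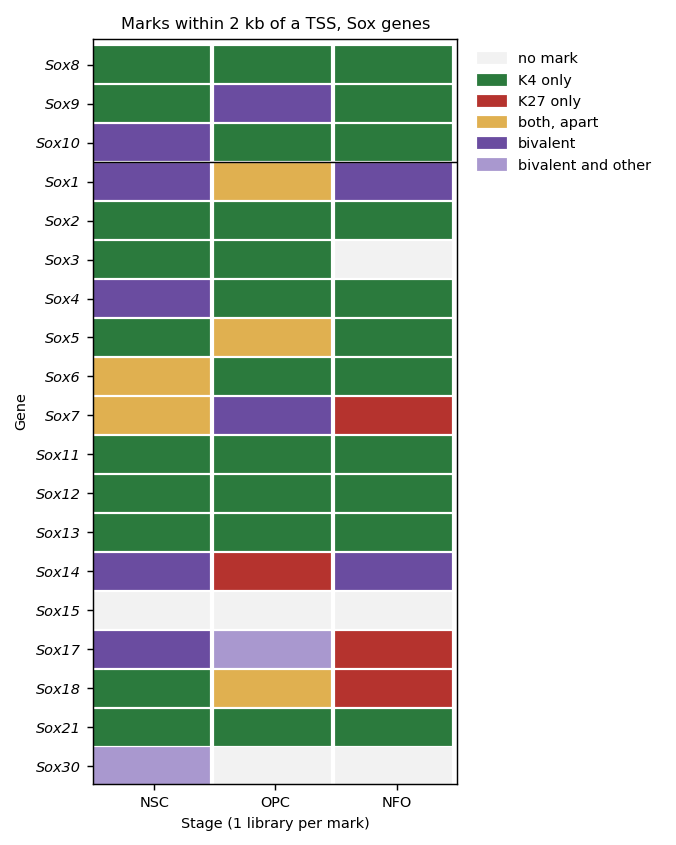
Marks within 2 kb of a TSS at the 3 SoxE genes (above the line) and 16 other Sox genes by stage, 1 library for each mark, with colours for the state. Sox10 and Sox4 share the order of a bivalent domain in NSCs followed by H3K4me3 without H3K27me3.

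Among 16 other Sox genes, H3K4me3 near a TSS was listed at 15, 13 and 10 in the order NSCs, OPCs, NFOs, and H3K27me3 at 7, 6 and 5. A bivalent domain was listed at 5, 2 and 2. Sox4 was the 1 gene of the 5 bivalent in NSCs that had H3K4me3 without H3K27me3 in both later stages, as Sox10 had. Its NSC H3K27me3 fold enrichment was 2.95, below the 3.5 that the study required, whereas that of Sox10 was above it. Its H3K4me3 fold enrichment was 15.9, 12.3 and 5.77 in NSCs, OPCs and NFOs. H3K4me3 without H3K27me3 at all stages, as at Sox8, was listed at 5 of the 16, namely Sox2, Sox11, Sox12, Sox13 and Sox21. Sox2, Sox11 and Sox21 were the highest of these, and their OPC fold enrichments were 11.0, 9.68 and 6.94. Sox5, which holds back differentiation of OPCs, had 7.06 in OPCs with a separate H3K27me3 peak of 3.44.

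Of 25 partners and targets of SoxE proteins, 20, 19 and 15 had H3K4me3 near a TSS in NSCs, OPCs and NFOs, and 4, 3 and 3 had H3K27me3. Zfp488, a repressor that promotes oligodendrocyte differentiation, was the 1 gene with the same order of states as Sox10, with H3K4me3 fold enrichments of 6.09, 10.6 and 7.01 and an NSC H3K27me3 value of 4.64. The highest others in OPCs were Sufu at 13.0, Tcf7l2 at 11.4, Olig2 at 8.69 and Pdgfra at 8.63. Of these, Tcf7l2 also had H3K27me3 in OPCs, at a fold enrichment of 6.16, and was the 1 gene of the list with a bivalent domain there. Sufu and Tcf7l2 act in Hedgehog and Wnt signalling. Neither mark was listed near a TSS at 5, 5 and 9 of the 25 genes, among them the myelin genes Mag and Mog at every stage. Other myelin genes had H3K4me3, Cnp at all 3 stages (6.98, 6.58 and 3.31). Mbp (4.09 and 5.01) and Cldn11 (3.59 and 4.51) had it in NSCs and OPCs. An OLIG2 peak lay in 11 of the 25 genes in OPCs and in 13 in NFOs, and in 2 and 5 of the 16 other Sox genes. Of all protein-coding genes, 13.7% had one in OPCs and 23.9% in NFOs. Gene length, on which a count of peaks in a gene depends, was not taken into account. The lists overlap, because Sox5 and Sox6 are in both and are counted in each.

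Likeness to each SoxE gene was measured as the Euclidean distance between log2(1 + highest fold enrichment near a TSS) over the 6 histone lists, among 15713 protein-coding genes with a peak in at least 1 list. The 5 genes most like Sox8 were Pik3cb, Hlf, Tnrc18, Shprh and Med13, at distances of 0.03 to 0.07. For Sox9 they were Tle3, Psmc1, Ythdc2, Nop58 and Nae1, at 0.22 to 0.28. For Sox10 they were Lgi1, Fgf13, Zmat1, Slc4a10 and Cacna1d, at 0.61 to 0.98. Of the SoxE genes, Sox10 was farthest from its most alike gene. No SoxE gene was among the 5 nearest of another, and the distance between Sox8 and Sox9 was 2.29.

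The labels were checked by H3K4me3 near the TSS of marker genes. OPC markers had it at 5 of 6 genes in NSCs, at 6 in OPCs, and at 5 in NFOs, and NSC markers, in the same order, at 6, 6 and 4 of 6. NFO markers had it at 4, 4 and 2 of 8, and those without it in NFOs included Mbp, Mag, Mog, Enpp6 and Myrf. Astrocyte markers had it at 3, 1 and 1 of 5, neuron markers at 3, 4 and 3 of 5, and microglia and endothelium markers at 0 or 1 of 5. By these genes the H3K4me3 list of NFOs did not show its label, and the NSC and OPC lists were hardly told apart. The NFO list also had H3K4me3 near a TSS at fewer protein-coding genes, 43.6% against 64.3% in NSCs and 60.8% in OPCs.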

How the data were processed

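The authors mapped unique ChIP-seq reads to mm10 with Bowtie2, called histone peaks with MACS2 and OLIG2 peaks with SPP, and called RNA immunoprecipitation sites with ASPeak. The deposited peak lists give each peak's fold enrichment over input, a ratio, and its −log10 of the false discovery rate. The deposited site lists give a tag count, an RPKM and a p-value, of which the tag count and p-value were used. Depth cannot be read from these lists. Of 13 samples, 10 had a file, and the 3 input libraries were not analysed here, nor was OLIG2 in NSCs.

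All listed peaks were used, with no further filter, and joined to GENCODE M21 genes (TSS of any transcript, 2 kb, 1 bp overlap) with Python 3 scripts. A bivalent domain is an overlap of the marks near a TSS. Percentiles are over protein-coding genes with such a peak. Sequences came from RefSeq GRCm38. The calling of states was tested on simulated peaks. Named genes were the SoxE genes, genes nearest to an OLIG2 peak, the 5 most alike genes, and from each list those with the same order of states as Sox10 and up to 4 others highest in OPCs. Sox6, Sox12, Sox13, Mag, Mog, Cnp, Mbp, Cldn11 and the markers without H3K4me3 were named after their values were seen. The members and lists were chosen with earlier results of these data known. Alternatives covered peak filters, windows, TSS choice, overlap and, added after seeing the data, peak width and runs of 1 base. The result of 1 list gene is not reported here.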

Additional observations from a re-analysis of the deposited data

How the results depend on the processing

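Of 112 alternative values, 91 stayed equal or within 1.5 times the reported one and 21 did not. The 91 include falls from 3 genes to 2 and from 6 OPC OLIG2 peaks to 4, and counts that were 0 in both, so they are no measure of stability. H3K4me3 near a TSS was kept by all 3 genes or by 2 of them. Sox10 lost it in NSCs above a fold enrichment of 5, with peaks of at least 500 bp and without runs, and Sox9 lost it in NFOs within 1 kb and with peaks of at least 500 bp. At a fold enrichment above 5, 0 SoxE genes had a bivalent domain in NSCs, 0 had one in OPCs and 0 had H3K27me3 in OPCs. Within 1 kb of the TSS, 0 had H3K27me3 and 0 were bivalent in OPCs. With peaks of at least 500 bp, added after seeing the data, 0 had H3K27me3 and 0 were bivalent in OPCs, and likewise in NSCs. Without narrow peaks holding a run of 15 or more of 1 base, also added later, 0 had H3K27me3 and 0 were bivalent in NSCs.

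The widest rather than the highest Sox10 peak in NFOs had a fold enrichment of 3.91. OLIG2 peaks within 100 kb were 3 in OPCs and 5 in NFOs both above a fold enrichment of 10 and when a SoxE gene had to be the nearest protein-coding TSS. Without runs, 4 remained in NFOs, and the peaks in the genes were 1 in OPCs and 0 in NFOs. Within 100 bp around the summit, 0 OPC peaks held a SOX motif and 2 NFO peaks an E-box. Beyond what these constructions drop, the cause was not tested. No paired analysis was possible because each group has 1 library.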
